A study of Mus musculus with 25 samples.

Results

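RNA levels of 10 genes were followed in 25 mouse hearts. They were Nox4 and Cyba, which encode the parts of an NADPH oxidase, Nfe2l2, which encodes the antioxidant transcription factor NRF2, and 7 antioxidant enzyme genes, Gclc, Gclm, Txnrd1, Srxn1, Nqo1, Hmox1 and Sod2. They were chosen by symbol, and each symbol matched 1 row of the 56941 genes in the count table. All 10 passed the filter on low counts, as did 17682 genes in all. The hearts came from wild-type (WT) mice and from mice labelled MCT1KO, after MCT1, the lactate and pyruvate transporter encoded by Slc16a1. Hearts were taken from mice with no pump, with saline, or with Ang/PE, a pair of neurohormonal agonists used to enlarge the heart. There were 4 WT and 3 MCT1KO hearts with no pump, 6 WT and 4 MCT1KO hearts with saline, and 3 WT and 5 MCT1KO hearts with Ang/PE. The series concerns lactate metabolism in cardiac hypertrophy. Strain, age, sex, dose, time of infusion, and the promoter or cell type of the knockout are not given in the sources used here.

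NADPH oxidases pass electrons from NADPH to oxygen. Nox4 releases mainly hydrogen peroxide and works only in complex with the membrane subunit encoded by Cyba, and in the heart it is known from cardiomyocytes, fibroblasts and endothelial cells. NRF2 is held at a low level by KEAP1, which marks it for breakdown. Oxidants and electrophiles release it, and it then binds antioxidant response elements with a small MAF partner and drives genes for glutathione synthesis (Gclc, Gclm), thiol repair (Txnrd1, Srxn1), quinone reduction (Nqo1) and heme breakdown (Hmox1). Sod2 turns superoxide into hydrogen peroxide inside mitochondria.

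The promoters of these genes are shown first, since NRF2 acts through a short element that can be read from the sequence. RefSeq promoter windows of 300 bases, from 250 bases before to 50 bases after a transcription start (assembly GRCm38.p6), were found for 8 of the 10 genes, as 10 windows; Hmox1 and Gclc were not matched. The core of the antioxidant response element, TGACNNNGC, was searched on both strands. It was found in 4 of the 10 windows, and in 12.4% of the 32851 RefSeq windows of that length. The windows of Nox4, Cyba, Nqo1 and Sod2 do not hold these letters. Each sequence below runs 5′ to 3′ on the strand of its gene, with the match in capitals.
Nfe2l2, chr2:75704859-75704913, minus strand: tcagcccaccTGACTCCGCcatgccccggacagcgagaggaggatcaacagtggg
Gclm, chr3:122245387-122245467, plus strand: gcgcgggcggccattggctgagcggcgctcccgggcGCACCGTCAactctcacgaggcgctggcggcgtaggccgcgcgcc
Txnrd1, chr10:82859078-82859158, plus strand: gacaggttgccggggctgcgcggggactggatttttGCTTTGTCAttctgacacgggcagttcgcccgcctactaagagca
Srxn1, chr2:152105542-152105570, plus strand: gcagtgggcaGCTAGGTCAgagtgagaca
The match in Nfe2l2 begins 240 bases before the start and reads in the direction of the gene. The matches in Gclm, 134 bases before the start, in Txnrd1, 92 bases before the start of its second window, and in Srxn1, 29 bases after the start, read on the opposite strand. A match is a description of the letters and not evidence of binding.

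The libraries held 12216704 to 24880683 counts, and mitochondrially encoded genes took 8.87% to 18.4% of them. Summed cardiomyocyte markers (Myh6, Tnnt2, Tnni3, Actn2 and Ryr2) stood at 28711 to 50604 CPM (counts per 1000000, scaled by TMM) in every heart. Slc16a1 was not lower in a way that passed the test in hearts labelled MCT1KO. Among hearts with no pump the WT mean was 203 ± 36.8 CPM (SD, n = 4) and the MCT1KO mean 199.8 ± 29.6 CPM (n = 3), followed by 199 ± 29.9 (n = 6) and 158 ± 26.02 (n = 4) with saline, and 214 ± 10.6 (n = 3) and 189.8 ± 21.9 (n = 5) with Ang/PE. The lowest adjusted p of these comparisons was 0.219 (edgeR, Benjamini-Hochberg, saline). Which exons the allele lacks is not given in the sources used here, so a count over the whole gene does not check the label, and MCT1KO below means the label. Some saline hearts stood apart. The summed atrial muscle markers Myl4, Myl7 and Sln were at most 5.73 CPM in every heart with no pump or with Ang/PE, but reached 1136 CPM in WT and 3679 CPM in MCT1KO hearts with saline. The heart at 3679 CPM, MCT1KO saline replicate 4, also had the highest sum of 5 adipocyte markers, 1216 CPM, where no heart with no pump or with Ang/PE exceeded 18.2 CPM. Its values are given with and without it where a result rests on it.

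Compared per kilobase of the longest annotated transcript, Sod2 was the most abundant of the 10 genes, with a median over hearts of 78.9 CPM per kilobase. Nfe2l2 (26.7), Nqo1 (26.4), Cyba (23.3) and Txnrd1 (18.2) formed a middle group on this scale, in CPM per kilobase. Srxn1 (7.21), Hmox1 (5.23), Gclc (5.01) and Gclm (4.20) were lower, and Nox4 was lowest at 0.878 CPM per kilobase. Abundance did not go with steadiness. Between the lowest and the highest heart Nox4 spanned 35.7-fold, Srxn1 6.54-fold, Hmox1 4.21-fold and Nqo1 3.16-fold. The other 6 genes spanned 1.77-fold to 2.09-fold. The smallest single count behind any of these values was 18 reads for Nox4 and 79 or more for the other genes, so counting error is largest for Nox4.

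**Figure D1:**
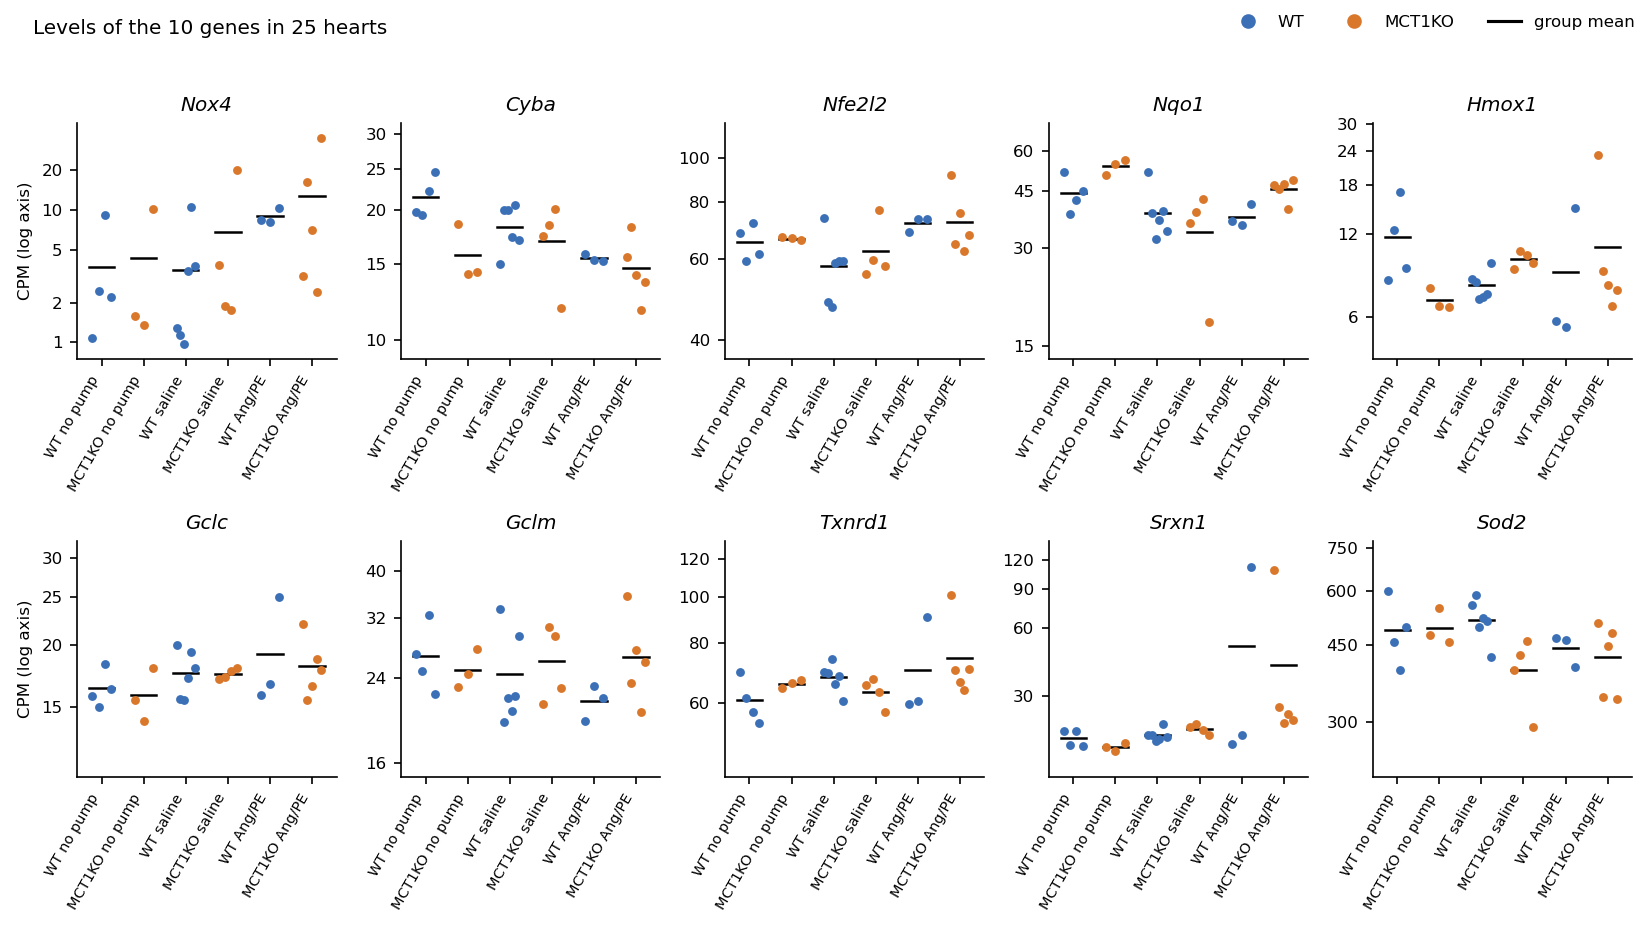
Level of each of the 10 genes in CPM (log axis, a different range for each gene) in every heart, with WT in blue, MCT1KO in orange and the group mean as a black line. The points of Nox4 scatter widely within 5 of the 6 groups, and 1 heart in each Ang/PE group stands far above the others for Srxn1.

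None of the 10 genes passed an adjusted p of 0.05 in any of 11 comparisons (edgeR quasi-likelihood test, Benjamini-Hochberg adjustment over all genes tested). In 5 of the 11 no gene of the whole table passed, so the count of 0 there says little about these genes. Leaving out 1 heart moved some of these counts of all genes by more than 1.5 times, as given with the alternatives. The 5 comparisons with no gene passing included MCT1KO against WT with no pump, with saline and with Ang/PE (0% called in each). They also included Ang/PE against no pump in WT (0%) and the interaction of genotype with Ang/PE against saline (0%). In 4 more the share called was under 1%: 0.017% for Ang/PE against saline in WT, 0.00566% for saline against no pump in MCT1KO, 0.503% for Ang/PE against no pump in MCT1KO and 0.00566% for the interaction of genotype with saline against no pump. The tables with more calls were Ang/PE against saline in MCT1KO, where 4.46% of all genes and 0 of the 10 passed, and saline against no pump in WT, where 6.61% of all genes and 0 of the 10 passed. DESeq2 also called 0 of the 10 in every comparison, but gave no adjusted p for Srxn1 in any of them, nor for Nox4, Cyba, Hmox1 and Gclc in MCT1KO against WT with no pump. An unadjusted p below 0.05 was reached in 10 of the 110 tests of these genes (9.09%), against 15% of the tests of all genes. The share in the 10 genes was thus below that of all genes. Groups whose CPM did not overlap were found in 9 of 90 pair comparisons of these genes, and the share of all genes with such separation ranged from 2.88% to 13.6% between comparisons.

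**Figure D2:**
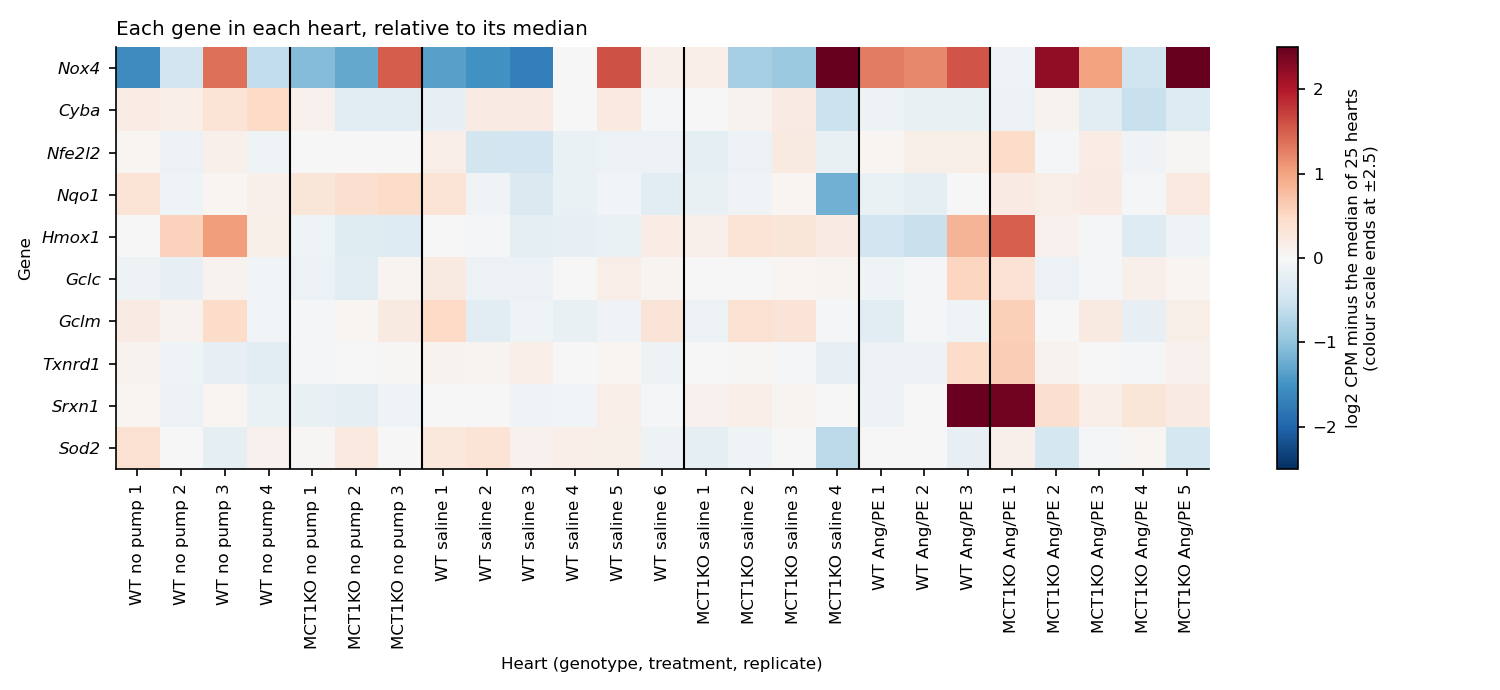
Heat map of the 10 genes (rows) in 25 hearts (columns, grouped by genotype and treatment, black lines between groups), as log2 CPM minus the gene's median over all hearts, with red higher and blue lower. Srxn1, Hmox1 and Txnrd1 are red in WT Ang/PE replicate 3 and MCT1KO Ang/PE replicate 1, and colours for Nox4 differ between hearts of the same group; values beyond 2.5 are drawn at the end of the scale.

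Nox4, the catalytic oxidase, differed between hearts of 1 group more than between groups. With no pump it stood at 1.08, 2.44, 9.14 and 2.20 CPM in WT hearts and at 1.57, 1.35 and 10.1 CPM in MCT1KO hearts. With saline the 6 WT hearts ranged from 0.975 to 10.6 CPM around a median of 2.36, and the MCT1KO hearts read 3.86, 1.90, 1.75 and 19.9 CPM. In each of these 4 groups a single heart, or in WT saline 1 heart well above the next, carried the high value. With Ang/PE the WT hearts read 8.47, 8.11 and 10.4 CPM and the MCT1KO hearts 3.20, 16.3, 7.01, 2.39 and 34.8 CPM. The 3 WT Ang/PE hearts were above 5 of the 6 WT saline hearts, and the MCT1KO Ang/PE hearts overlapped every other group. In WT hearts the mean was 3.52 ± 3.65 CPM with saline (SD, n = 6) and 9.003 ± 1.25 CPM with Ang/PE (n = 3), with an estimated log2 fold change of 1.35 and a 95% interval from -0.63 to 3.33. Its smallest p was in MCT1KO hearts, Ang/PE against no pump, with a log2 fold change of 1.55 ± 1.04 (SE) and an adjusted p of 0.581 (edgeR). Without MCT1KO Ang/PE replicate 5 this Nox4 value was 0.73, and without MCT1KO no pump replicate 3 it was 3.13. At this spread neither a rise nor its absence is shown.

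The fibroblast markers Col1a1, Col1a2, Pdgfra, Dcn and Tcf21 varied with Nox4 from heart to heart. The heart with the highest Nox4 was also the heart with the highest fibroblast sum in 5 of the 6 groups, and the rank correlation over the 25 hearts was 0.85. WT Ang/PE replicates 1 and 2 had Nox4 of 8.47 and 8.11 CPM at fibroblast sums of 820 and 977 CPM. WT saline hearts with sums of 787, 936 and 943 CPM had Nox4 of 0.975, 3.44 and 3.77 CPM, and the one at 1288 CPM had 10.6 CPM. The sum ranged from 812 to 1465 CPM in WT and from 637 to 1257 CPM in MCT1KO hearts with no pump, from 656 to 1288 CPM and from 908 to 1476 CPM with saline, and from 820 to 1096 CPM and from 795 to 1755 CPM with Ang/PE. None of the 5 fibroblast genes was at 0 in any heart. The part of fibroblast content in the Nox4 level was not tested, and in whole hearts more cells of a type and more RNA per cell cannot be told apart. Among the genes most like Nox4 over the 25 hearts, chosen after its values were seen, were Gabra3 (Pearson r 0.93) and Tenm3 (0.92), and without the hearts farthest from the median, MCT1KO Ang/PE replicate 5 and MCT1KO saline replicate 4, these were 0.90 and 0.88. Among the 10 genes themselves Nox4 ran opposite to Sod2 (r = -0.76 over 25 hearts). These correlations are across hearts of all groups and share library scaling.

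Cyba, the membrane subunit that Nox4 needs, did not follow Nox4. Its levels with no pump were 19.8, 19.5, 22.1 and 24.5 CPM in WT and 18.6, 14.2 and 14.4 CPM in MCT1KO hearts, and the groups did not overlap. The log2 fold change was -0.45 ± 0.16 (SE) with an adjusted p of 0.278 (edgeR), in a comparison in which 11.5% of all genes were separated in this way. With Ang/PE the WT hearts read 15.9, 15.3 and 15.2 CPM, all below the WT hearts with no pump, for a log2 fold change of -0.47 ± 0.16 and an adjusted p of 0.454 (edgeR). Again 10.7% of all genes were separated there. WT saline hearts ranged from 14.998 to 20.5 CPM with a median of 18.7 and overlapped both. MCT1KO hearts ranged from 11.9 to 20.1 CPM with saline and from 11.7 to 18.3 CPM with Ang/PE. The ordering of group means, from 21.5 ± 2.33 CPM (SD, n = 4) in WT hearts with no pump down to 14.7 ± 2.44 CPM (n = 5) in MCT1KO Ang/PE hearts, held no comparison that passed the test. With GC content and transcript length offsets, both log2 fold changes shrank, to -0.24 and -0.28. The Cyba transcript has 59.3% GC, the highest of the 10, and at 0.744 kilobases is the shortest. Over all genes, the rank correlation of log2 fold change with GC content was 0.046 and 0.023 in these comparisons. Over the 11 comparisons it ranged from -0.32 to 0.34. The part of GC content or length in the Cyba differences was not tested. The genes most like Cyba were Rbx1 and Gtf2h5 (r = 0.87 each over 25 hearts) and Ndufb2 (0.87), and without 2 hearts these were 0.86, 0.83 and 0.85. Rbx1 encodes a ring-finger subunit of cullin ubiquitin ligases, Gtf2h5 a subunit of a transcription and DNA repair factor and Ndufb2 a subunit of respiratory complex I.

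Nfe2l2, the regulator, varied little between the MCT1KO hearts with no pump. In these hearts it read 67.0, 66.6 and 66.1 CPM, and in WT hearts with no pump 68.6, 59.4, 72.1 and 61.6 CPM. With Ang/PE the 3 WT hearts read 68.7, 73.4 and 73.5 CPM, above 5 of the 6 WT saline hearts, which ranged from 47.3 to 74.0 CPM with a median of 59.2. The groups overlapped through WT saline replicate 1. The difference, a log2 fold change of 0.31 ± 0.13 (SE), was the one of smallest p for Nfe2l2 and had an adjusted p of 0.186 (edgeR). With atrial and adipocyte scores as covariates, each the mean log2 CPM of its markers in a heart, it was 0.00. In WT saline the atrial sum ranged from 2.03 to 1136 CPM. Atrial markers were high only in saline hearts, so this fit cannot fully separate them from saline. The part of those cells in the Nfe2l2 difference was not tested. In MCT1KO hearts Nfe2l2 read 55.7, 59.9, 76.8 and 58.2 CPM with saline and 91.4, 64.7, 75.6, 62.4 and 67.7 CPM with Ang/PE, which overlapped. The log2 fold change between genotypes lay between 0.01 and 0.11 within each treatment. NRF2 is controlled mainly through protein breakdown, and RNA does not measure that.

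The subunits of glutamate-cysteine ligase, the first step of glutathione synthesis, were measured as Gclc (catalytic) and Gclm (modifier). Gclc stayed within 14.1 to 19.997 CPM in the 17 hearts with no pump or with saline. With Ang/PE it read 15.9, 16.7 and 24.9 CPM in WT and 22.03, 15.5, 16.5, 18.8 and 17.8 CPM in MCT1KO hearts. The 2 values above that range belonged to WT replicate 3 and MCT1KO replicate 1. The comparison of smallest p was Ang/PE against no pump in WT, with a log2 fold change of 0.23 ± 0.14 (SE) and an adjusted p of 0.645 (edgeR). Without these 2 hearts the same value was -0.0099. Gclm read 26.9, 24.8, 32.5 and 22.3 CPM in WT hearts with no pump and 19.5, 23.1 and 21.8 CPM in WT hearts with Ang/PE. MCT1KO Ang/PE hearts read 35.5, 23.5, 27.5, 20.4 and 25.9 CPM, the highest again in replicate 1. The genotypes with Ang/PE differed by a log2 fold change of 0.30 ± 0.18 in Gclm, with overlap and an adjusted p of 0.751 (edgeR). The other hearts ranged from 19.4 to 33.3 CPM, both extremes in WT saline.

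Txnrd1, the cytosolic thioredoxin reductase, and Srxn1, which repairs overoxidised peroxiredoxins, were high in the same single hearts. Srxn1 lay between 17.2 and 22.7 CPM in every heart with no pump or with saline. With Ang/PE it read 18.4, 20.3 and 112 CPM in WT and 109, 26.9, 22.8, 25.0 and 23.5 CPM in MCT1KO hearts. All 5 MCT1KO Ang/PE hearts, replicate 1 included, were above every MCT1KO heart with saline or with no pump. In WT only replicate 3 was above the saline range. The log2 fold change of Ang/PE against saline was 1.31 ± 0.47 (SE) in WT, adjusted p 0.149, and 0.93 ± 0.47 in MCT1KO hearts, adjusted p 0.275 (edgeR); the groups overlapped in WT and not in MCT1KO, where 5.42% of all genes were separated. Without the 2 high hearts, the WT value turned to -0.057 and the MCT1KO value fell to 0.19. Against no pump the MCT1KO value was 1.198 ± 0.53 with an adjusted p of 0.323, and without the 2 hearts 0.45 with an adjusted p of 0.0147 (edgeR). In that comparison 8.45% of all genes were separated, and without the 2 hearts 154 genes passed in place of 89. The 2 hearts to leave out were chosen after the values were seen. In MCT1KO hearts, Srxn1 with saline (21.9, 22.6, 21.4 and 20.2 CPM) was also above Srxn1 with no pump (17.9, 17.2 and 18.7 CPM), with a log2 fold change of 0.26 ± 0.54 and an adjusted p of 0.897 (edgeR), and 8.6% of all genes were separated there. The interaction of genotype with Ang/PE against saline was -0.38 with a 95% interval from -1.78 to 1.02.

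Txnrd1 ranged from 54.5 to 74.2 CPM in hearts with no pump or with saline. With Ang/PE it read 59.8, 60.6 and 90.8 CPM in WT and 101, 70.2, 66.3, 63.9 and 70.5 CPM in MCT1KO hearts. Again WT replicate 3 and MCT1KO replicate 1 were high, and the other 6 Ang/PE hearts fell in the range of hearts with no pump or with saline. The comparison of smallest p was Ang/PE against saline in MCT1KO hearts, a log2 fold change of 0.23 ± 0.12 (SE) with an adjusted p of 0.295 (edgeR), which was 0.10 without the 2 hearts.

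**Figure D3:**
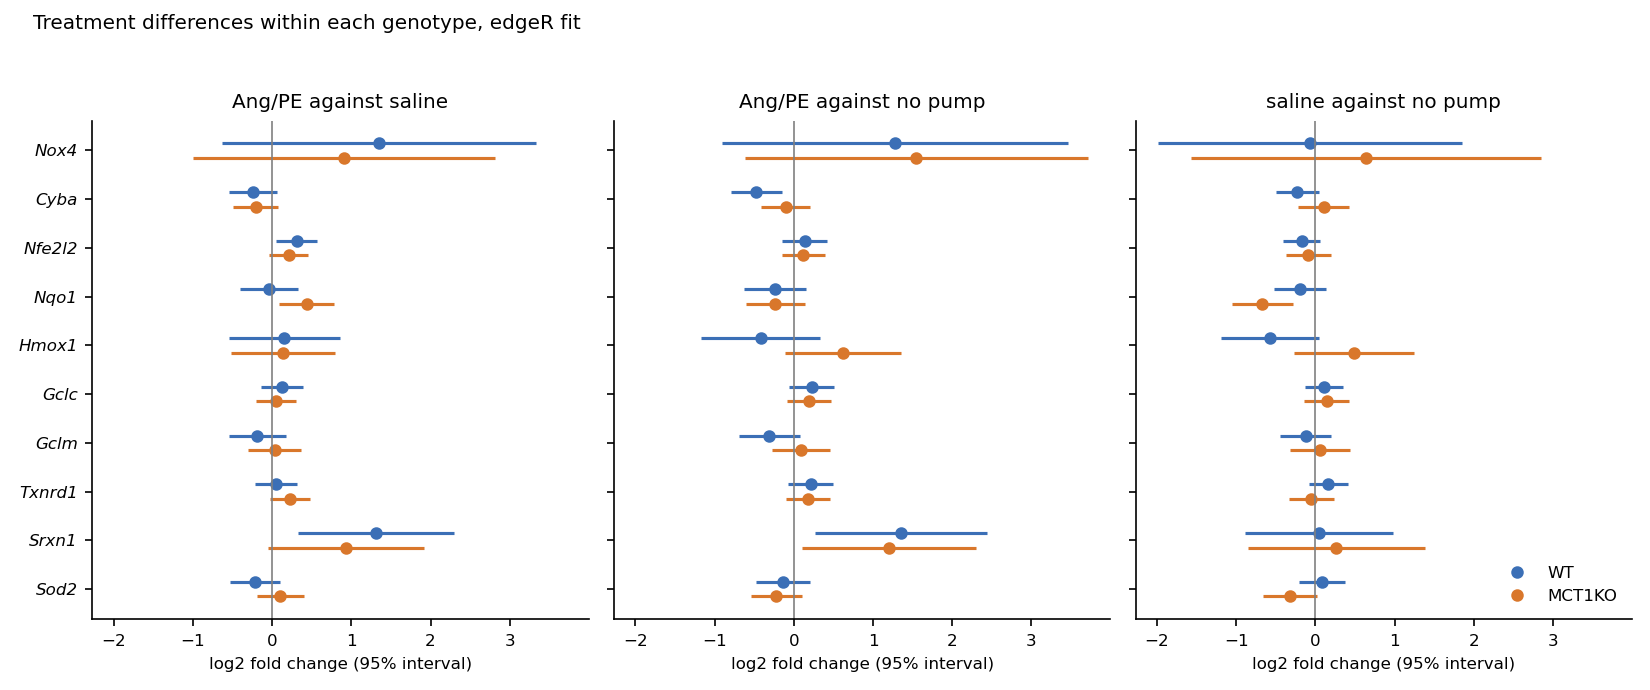
Log2 fold changes of the 10 genes for Ang/PE against saline, Ang/PE against no pump and saline against no pump, in WT (blue) and MCT1KO (orange), as points with 95% intervals from the edgeR fit over 25 hearts. The intervals of Nox4 and Srxn1 are the widest, and intervals that exclude 0 here are not adjusted for the number of genes tested.

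Nqo1, a quinone reductase, was lower in MCT1KO hearts with saline than with no pump, but did not pass the test. The values did not overlap, as for 8.6% of all genes. With no pump it stood at 51.8, 38.2, 42.3 and 45.0 CPM in WT and 50.5, 54.5 and 56.1 CPM in MCT1KO hearts. With saline the MCT1KO hearts read 36.03, 38.7, 42.6 and 17.8 CPM, and all 4 were below the MCT1KO hearts with no pump. For saline against no pump this gave a log2 fold change of -0.67 ± 0.19 (SE) and an adjusted p of 0.160 (edgeR). The lowest heart was MCT1KO saline replicate 4, the heart with the high atrial and adipocyte sums, and without it the log2 fold change was -0.45 with an adjusted p of 0.475. Without MCT1KO saline replicate 3, the heart with the lowest atrial sum (1.4996 CPM), it was -0.79 with an adjusted p of 0.0271, so that 1 heart decided the call. Without that heart 626 genes of the whole table passed, in place of 1. With the atrial and adipocyte scores as covariates the log2 fold change of Nqo1 was -0.11. The part of other tissue in these levels was not tested. MCT1KO Ang/PE hearts read 47.1, 45.9, 47.4, 39.6 and 48.7 CPM. They were below the no pump hearts without overlap, as for 8.45% of all genes (log2 fold change -0.23 ± 0.18, adjusted p 0.647, edgeR). They were mostly above the saline hearts (0.44, adjusted p 0.139, edgeR, or 0.22 and 0.437 without MCT1KO saline replicate 4). In WT, saline hearts ranged from 32.1 to 51.7 CPM with a median of 37.6 and Ang/PE hearts read 36.4, 35.3 and 41.0 CPM. The interaction of genotype with saline against no pump was -0.47 with a 95% interval from -0.98 to 0.04. The genes most like Nqo1 were Lrrc2 (r = 0.84 over 25 hearts), Qk (0.82) and Arhgef6 (0.81). Without MCT1KO saline replicate 4 and MCT1KO no pump replicate 3 these fell to 0.58, 0.64 and 0.56, so the likeness rests in part on those hearts.

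Hmox1, the inducible heme oxygenase, was highest in single hearts of 3 groups. It read 8.21, 12.4, 17.1 and 9.06 CPM in WT and 7.66, 6.62 and 6.57 CPM in MCT1KO hearts with no pump. The genotypes did not overlap, as for 11.5% of all genes. The log2 fold change was -0.75 ± 0.36 (SE) with an adjusted p of 0.409 (edgeR), or -0.51 without WT no pump replicate 3, the heart at 17.1 CPM. With saline the order of means was opposite: WT hearts ranged from 6.99 to 9.41 CPM with a median of 7.64 and MCT1KO hearts read 8.98, 10.5, 10.1 and 9.44 CPM. The MCT1KO saline hearts were all above the MCT1KO hearts with no pump, by a log2 fold change of 0.49 ± 0.36 with an adjusted p of 0.626 (edgeR). Of all genes, 8.6% were separated there. In WT hearts saline against no pump gave -0.57 ± 0.30 for Hmox1, with overlap and an adjusted p of 0.243 (edgeR). The test of the difference itself, genotype by saline against no pump, gave 1.06 ± 0.47 with an adjusted p of 0.258 (edgeR). With the Xist level as a covariate for sex this was 0.46. Group ranges of leukocyte markers shifted likewise with no pump and with saline, though not heart by heart: the sum of Ptprc, Cd68, Csf1r, Itgam, Adgre1 and Lyz2 was 189 to 414 CPM in WT and 151 to 221 CPM in MCT1KO hearts with no pump, and 163 to 241 CPM and 199 to 256 CPM with saline. The heart of highest Hmox1, MCT1KO Ang/PE replicate 1, had the lowest leukocyte sum of its group, 163 CPM. Macrophages express Hmox1, and the part of leukocytes in its level was not tested. With Ang/PE Hmox1 read 5.85, 5.52 and 14.9 CPM in WT and 23.2, 8.80, 7.88, 6.58 and 7.56 CPM in MCT1KO hearts. The high values were once more WT replicate 3 and MCT1KO replicate 1, and the other WT Ang/PE hearts held the lowest Hmox1 of all 25.

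Sod2, the mitochondrial dismutase, was lower in MCT1KO than in WT hearts with saline by a log2 fold change of -0.39 ± 0.14 (SE), which did not pass (adjusted p 0.189, edgeR). The WT hearts ranged from 424 to 587 CPM with a median of 514 and the MCT1KO hearts read 396, 427, 461 and 292 CPM, so 2 of the 4 lay within the WT range. The lowest was again MCT1KO saline replicate 4, and without it the log2 fold change was -0.26 with an adjusted p of 0.722. Cardiomyocyte marker sums ranged from 42453 to 50604 CPM in WT and from 28711 to 42827 CPM in MCT1KO hearts with saline. With no pump Sod2 stood at 599.6, 457, 396 and 497 CPM in WT and at 474, 549 and 457 CPM in MCT1KO hearts. With Ang/PE it stood at 468, 462 and 401 CPM in WT and 507, 342, 449, 479.6 and 339.6 CPM in MCT1KO hearts. These groups overlapped. The lowest Sod2 values were in the hearts with the highest Nox4, MCT1KO saline replicate 4 and MCT1KO Ang/PE replicates 5 and 2. Their cardiomyocyte sums were 28711, 32995 and 34572 CPM. WT no pump replicates 3 and 4, with Sod2 of 396 and 497 CPM, had sums of 29063 and 29436 CPM. The part of cardiomyocyte content in the Sod2 levels was not tested. The genes most like Sod2 over the 25 hearts were Hadha (r = 0.96), a subunit of the mitochondrial enzyme complex of long-chain fatty acid oxidation, Sdha (0.95), a subunit of respiratory complex II, and Dnajc28 (0.94), a DnaJ family member. They kept r of 0.93, 0.92 and 0.90 without MCT1KO saline replicate 4 and MCT1KO Ang/PE replicate 5.

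The high values of Srxn1, Hmox1, Txnrd1 and Gclc fell in the same pair of hearts. Relative to the median of the other hearts of its group, WT Ang/PE replicate 3 had 5.80-fold Srxn1, 2.63-fold Hmox1, 1.53-fold Gclc and 1.51-fold Txnrd1. MCT1KO Ang/PE replicate 1 had 4.49-fold Srxn1, 3.01-fold Hmox1, 1.48-fold Txnrd1 and 1.29-fold Gclc. The genes whose ratio differed between these hearts included Gclm (1.02-fold in the WT heart, 1.44-fold in the MCT1KO heart), Nfe2l2 (1.03-fold and 1.38-fold) Sod2 (0.863-fold and 1.28-fold) and Nox4 (1.26-fold and 0.274-fold). Nqo1, also a gene that NRF2 drives, was at 1.14-fold and 1.01-fold. Each heart was the highest of its group for 7 of the 10 genes, the same number but not the same genes. Of 28 other genes listed as NRF2 targets, 14 were highest in the WT heart among its 3 hearts, as were 40.8% of all genes, and 12 in the MCT1KO heart among its 5, as were 23.1% of all genes. MCT1KO Ang/PE replicate 2 was highest for 11 of the 28. A heart with no pump, WT replicate 3, was highest of its 4 for 13 of the 28 and for 27.8% of all genes. That heart was also highest for 6 of the 10 genes, as was MCT1KO no pump replicate 3 in its group. The pair of Ang/PE hearts was picked after the values of these genes were seen.

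**Figure D4:**
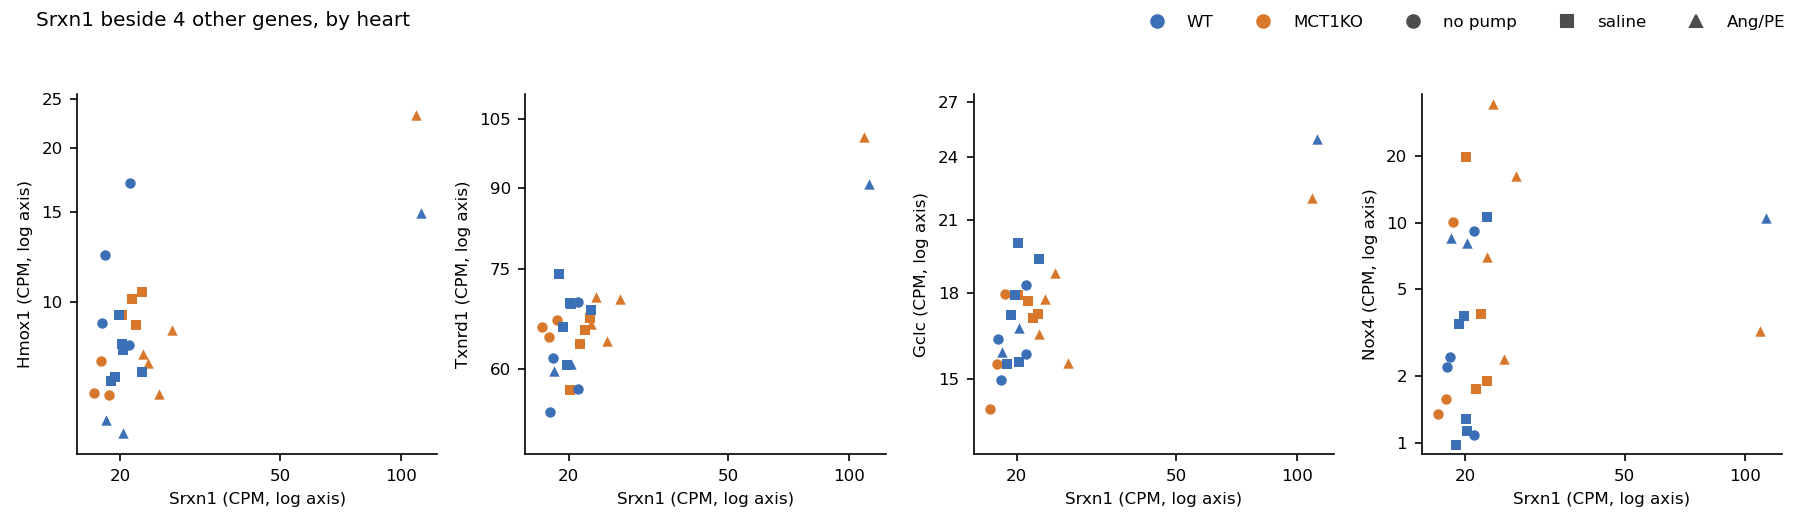
Srxn1 (x axis, CPM, log axis) against Hmox1, Txnrd1, Gclc and Nox4 (y axes, CPM, log axes) in 25 hearts, coloured by genotype and shaped by treatment. The 2 Ang/PE hearts with Srxn1 of 112 and 109 CPM lie at the upper right for Txnrd1 and Gclc, while for Nox4 they lie at 10.4 and 3.20 CPM, within the range of the other hearts.

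Correlations of Srxn1 with other genes rest largely on this pair. Over 25 hearts Pearson's r with Txnrd1 was 0.84, with Gclc 0.77 and with Hmox1 0.67. Over the other 23 hearts it was 0.33, 0.40 and 0.11. The genes whose pattern was most like Srxn1, chosen after its values were seen, were Itga5, the fibronectin receptor subunit (r = 0.97, and 0.85 over 23 hearts), Xirp1, an actin-binding protein of intercalated discs (0.96 and 0.74), and P2rx5, an ATP-gated channel (0.95 and 0.77). The Xirp1 level was 3117 CPM in WT Ang/PE replicate 3 and 2739 CPM in MCT1KO Ang/PE replicate 1, while the other 6 Ang/PE hearts did not exceed 655 CPM. The fibroblast and leukocyte marker sums, 1096 and 250.4 CPM in the WT heart and 795 and 163 CPM in the MCT1KO heart, were the highest of the WT and the lowest of the MCT1KO Ang/PE hearts. The part of these cells in the 2 hearts' values was not tested.

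Other genes of the pathway were counted from 4 lists. Of 16 other NADPH oxidase subunits and partners 13 were tested, of 11 regulators of NRF2 all 11, of 32 other listed NRF2 targets 28, and of the other superoxide, peroxide and thiol enzymes 33. With Ang/PE against saline in WT none of these passed by edgeR. DESeq2 called 2 regulators, 1 target and 1 other enzyme there, of 649 genes it called in all. The gene of smallest p among the regulators was Maff, a small MAF partner of NRF2. Maff stood at 13.6, 21.5 and 36.2 CPM with Ang/PE and ranged from 5.99 to 12.7 CPM with saline, without overlap, as for 13.6% of all genes. Its log2 fold change was 1.53 ± 0.39 (SE) with an adjusted p of 0.0718 (edgeR), or 0.00788 by DESeq2, and leaving out each heart gave 0.0433 to 0.580 (edgeR).

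With Ang/PE against saline in MCT1KO hearts, where 4.46% of all genes passed, 0 of 13 oxidase genes, 1 of 11 regulators, 3 of 28 targets and 4 of 33 other enzymes passed. The regulator was Mafk, another small MAF, which rose by 0.61 on the log2 scale, with means of 41.1 ± 8.42 CPM in saline (SD, n = 4) and 62.9 ± 14.3 CPM in Ang/PE hearts (n = 5) (adjusted p 0.0446, edgeR). Risen enzymes were the methionine sulfoxide reductases Msrb3, from 129 ± 10.3 to 176 ± 17.5 CPM, and Msrb1, from 68.0 ± 15.9 to 94.5 ± 13.1 CPM, with Park7, a peroxide-responsive chaperone, and Gsta4, a glutathione transferase for lipid aldehydes. Their log2 fold changes were 0.45, 0.47, 0.46 and 0.40, with adjusted p of 0.0141, 0.0401, 0.0349 and 0.0447 (edgeR). Slc6a9, a glycine transporter, fell from 4.41 ± 1.503 to 1.94 ± 0.313 CPM and Ucp2, an inner mitochondrial membrane carrier, from 116 ± 42.6 to 60.7 ± 8.92 CPM. Tkt, the transketolase, had a log2 fold change of -1.99 (adjusted p 0.0170, edgeR), but its saline hearts read 51.8, 45.7, 31.5 and 319 CPM. The value of 319 CPM was MCT1KO saline replicate 4, and without it the log2 fold change of Tkt was -0.62 (adjusted p 0.0455, edgeR). Without that heart only 1 of the 8 genes, Tkt, still passed. With the atrial and adipocyte scores as covariates, or with only the groups compared, 0 of the 8 did. The median log2 fold change was 0.19 in the regulators, -0.06 in the targets, 0.10 in the other enzymes and -0.03 in the oxidase genes. It was -0.01 over all genes and 0.17 in the 10 genes above. Of these 10, 9 had a value over 0, beside 48.2% of all genes. These values share hearts: MCT1KO Ang/PE replicate 1 was highest of its group for 7 of the 10, and MCT1KO saline replicate 4 lowest of its group for 5.

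With saline against no pump in WT 6.61% of all genes passed. Of the lists, 1 of 13 oxidase genes, 0 of 11 regulators, 2 of 28 targets and 3 of 33 other enzymes passed. All 6 genes fell, as did 746 of the 1168 genes called in the whole table. Among oxidase genes this was Ncf1, the organiser subunit of the phagocyte oxidase, which fell by 0.90 on the log2 scale, with means of 9.58 ± 2.38 CPM with no pump (SD, n = 4) and 5.12 ± 1.43 CPM with saline (n = 6) (adjusted p 0.0110, edgeR). The targets were the peroxidase Prdx1, from 253.8 ± 10.03 to 171 ± 17.7 CPM, and the glutathione transferase Gsta3, from 8.21 ± 3.30 to 4.47 ± 0.513 CPM. The other enzymes were Glrx3, from 101 ± 4.45 to 69.0 ± 3.45 CPM, Gpx8, from 15.3 ± 2.49 to 9.77 ± 1.70 CPM, and Sesn1, from 151 ± 13.6 to 101 ± 10.4 CPM. Glrx3, Prdx1 and Sesn1 separated the groups fully, as did 10.3% of all genes. Leukocyte markers, which include cells that express Ncf1, summed to 189 to 414 CPM with no pump and 163 to 241 CPM with saline, and their part in the result was not tested. Cardiomyocyte marker sums ranged from 29063 to 43054 CPM with no pump and from 42453 to 50604 CPM with saline, and the mitochondrial share from 14.78% to 18.4% and from 8.94% to 14.77%. With mitochondrially encoded genes removed all 6 still passed. Without WT no pump replicate 3 only 1 of the 6, Glrx3, still passed. With GC content and length offsets 2 of the 6 did, Glrx3 and Ncf1, and with the atrial and adipocyte scores as covariates 0 did. Over all genes, log2 fold change in this comparison had a rank correlation of 0.34 with GC content, the highest of the 11 comparisons. The median log2 fold change was -0.26 in the oxidase genes, -0.09 in the targets and 0.02 in the other enzymes, beside 0.00 over all genes.

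In the other comparisons 1 list gene passed by edgeR. Aox1, an aldehyde oxidase that uses molecular oxygen, fell from 96.6 ± 16.9 CPM (SD, n = 3) with no pump to 61.0 ± 8.04 CPM (n = 5) with Ang/PE in MCT1KO hearts, a log2 fold change of -0.66 (adjusted p 0.0223, edgeR). It stood at 80.5, 114 and 95.1 CPM and at 70.9, 49.9, 63.6, 56.4 and 64.1 CPM, without overlap, as for 8.45% of all genes. Without MCT1KO no pump replicate 2, the heart at 114 CPM, the log2 fold change was -0.53 and the adjusted p of Aox1 0.261. The call was also lost without MCT1KO no pump replicate 3 (0.0569) or MCT1KO Ang/PE replicate 2 (0.0637), with only the groups compared (0.0655), with the replicate block (0.0506) and with the Xist covariate (0.174). By edgeR no gene of the 4 lists passed in any comparison of MCT1KO with WT or in either interaction. Between genotypes DESeq2 called 1 target with no pump, of 75 genes it called in all. With saline it called 2 targets and 1 other enzyme, of 145 genes in all. For genotype by saline against no pump it called 1 oxidase gene, 2 targets and 2 other enzymes, of 369 genes in all. In MCT1KO hearts it called 1 target for saline against no pump, of 208 genes in all. For Ang/PE against no pump it called 1 target and 1 other enzyme there, of 393 genes in all. With no pump, 10 of the 13 oxidase genes (median log2 fold change -0.33), 22 of the 28 targets and 26 of the 33 other enzymes had a lower fitted level in MCT1KO than in WT hearts, the latter lists with medians of -0.11 and -0.14, beside 0.00 over all genes. With saline, 12 of the 28 targets (median 0.09), 21 of the 33 enzymes (median -0.15) and 2 of the 13 oxidase genes (median 0.35) were lower. With Ang/PE, 9 of the 13 oxidase genes (median -0.15), 8 of the 28 targets and 14 of the 33 enzymes were lower, with medians of 0.04 and 0.02. Of all genes, 49.6% had a value over 0 with no pump, 54.7% with saline and 50.8% with Ang/PE.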

How the data were processed

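RNA was isolated from whole hearts, depleted of ribosomal RNA and made into strand-specific libraries, per the labels' protocols. The authors deposited a table of read counts per gene, without normalization; the submitters' processing notes name STAR 2.7.9a, cutadapt 1.16, featureCounts 1.6.3, DESeq2 1.42.1 and the build GRCm39 (mm39), without their roles. The annotation release and whether the counting used strand are not given in the sources used here, so reads of overlapping genes (Gm20388 at Cyba; Gm24996 at Nfe2l2; Gm17494 and Gm6061 at Gclm; Eid3, Gm38560 and Gm47073 at Txnrd1) may be shared. Columns were matched to samples by library name, with 0 left over. Names came from GENCODE M21, which also gave transcript length and GC content.

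Counts were tested with edgeR 4.0.16 in R 4.3.3 (filterByExpr, TMM, robust quasi-likelihood fit of 6 groups and 25 hearts, two-sided), with Benjamini-Hochberg adjustment over 17682 genes in each of 11 comparisons. CPM (counts per 1000000) used TMM-scaled library sizes, and log2 CPM used a prior count of 2. A gene passed at an adjusted p below 0.05. Depth limits the precision of low genes such as Nox4. The members and lists were chosen with earlier results of these data known. Full statistics are given for each gene in the comparison of its smallest p and where groups did not overlap. From the lists, genes that passed are named, at most 4 per list and comparison. Nnt matched 2 rows and was left out. For each gene described, up to 3 genes of most similar pattern are named, and 1 of them is not reported here. Alternatives were DESeq2 1.42.0, RLE scaling, a non-robust fit, a fit without the low-count filter, fits of the compared groups alone, a replicate block, mitochondrial genes removed, Xist or atrial and adipocyte scores as covariates, and each heart left out. GC and length offsets (mgcv 1.9.3), and leaving out both hearts of high Srxn1, were added after seeing the data. The fit was also run on simulated counts with the same dispersion for every gene and no outlying hearts. Such data do not cover genes with a spread like that of Nox4 or Srxn1.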

Additional observations from a re-analysis of the deposited data

Results flagged for a closer look

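In groups of 4 or more hearts, a highest or lowest value far from the rest was looked for in 40 combinations of gene and group, of which chance gives about 2. There were 4 such values, in log2 CPM. In MCT1KO Ang/PE replicate 1, Srxn1 was at 6.77, Hmox1 at 4.54 and Txnrd1 at 6.66, each far above the other 4 hearts of its group. Srxn1 in WT saline replicate 5 was at 4.51, or 22.7 CPM, where the other 5 hearts lay between 18.95 and 20.3 CPM, a small difference in a tight group. WT Ang/PE replicate 3, with Srxn1 of 112 CPM, belongs to a group of 3, which is too small for this rule.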

How the results depend on the processing

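Of 396 recounts of the 10 genes (36 settings in 11 comparisons), 392 gave 0 genes passing and 4 gave 1. For saline against no pump in WT this was Hmox1, 1 gene with only the groups compared and 1 without both hearts of high Srxn1. Without both hearts 1295 genes passed there in all. For saline against no pump in MCT1KO it was Nqo1 without MCT1KO saline replicate 3, where 626 genes passed in all. Leaving out each heart gave 0 to 1 of the 10 genes there. For Ang/PE against no pump in MCT1KO it was Srxn1, 1 gene without both hearts, where 154 genes passed in all. The sign of 3 log2 fold changes turned: Srxn1 in WT, Ang/PE against saline, to -0.057 without both hearts (leaving out each heart, -0.051 to 1.71), Gclc in WT, Ang/PE against no pump, to -0.0099 without both hearts, and Tkt in MCT1KO, Ang/PE against saline, to 0.18 with the atrial and adipocyte scores. The cause was not tested. With the replicate block 0 of the 10 genes passed in every comparison, and 534 in place of 788 genes passed for Ang/PE against saline in MCT1KO, 527 in place of 1168 for saline against no pump in WT, and 115 in place of 0 for genotype with saline. The numbers share no animal, and over 52 same-numbered pairs the deviations from group means had a mean correlation of 0.0094.

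The number of genes passing moved more. By DESeq2 it was 1180 and 1955 in these treatment comparisons and 649 in place of 3 for Ang/PE against saline in WT. It was 393 in place of 89 for Ang/PE against no pump in MCT1KO. For Ang/PE against saline in MCT1KO it was 1 with the marker scores and 39 without MCT1KO saline replicate 4. For saline against no pump in WT it was 0 with the scores, 108 with GC and length offsets and 60 without WT no pump replicate 3. Atrial markers were high only in saline hearts, so the scores partly stand in for saline in the comparisons that include it. For Ang/PE against no pump in MCT1KO the number with the scores was 193 in place of 89. Leaving out 1 heart gave up to 250 genes for genotype with saline, 316 for Ang/PE against saline in WT and 626 for saline against no pump in MCT1KO, each without MCT1KO saline replicate 3, and 663 for genotype by saline against no pump without WT no pump replicate 1, in place of 0, 3, 1 and 1. For Ang/PE against no pump in MCT1KO it gave 1 without MCT1KO no pump replicate 2 to 226 without MCT1KO saline replicate 4. Depth was lowest with Ang/PE, but the smallest Nox4 count, 18, was in a WT saline heart.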
